A study of Homo sapiens with 20 samples.

Results

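Paraspeckles are nuclear bodies built on the long noncoding RNA NEAT1, and the 8 genes described here are NEAT1, the nuclear long noncoding RNA MALAT1 and 6 genes for RNA-binding proteins tied to these RNAs, namely SFPQ, NONO, PSPC1, TARDBP, MATR3 and RBM14. They were chosen by gene name in the deposited count tables. MATR3 is listed under 2 Ensembl identifiers, so the 8 genes take up 9 of the 58735 identifiers counted, and all 9 were among the 20166 that had enough counts to be tested. The genes were picked with the difference between the exposure groups already known, above all for NEAT1 and MALAT1, so their differences between groups are given as a description with no test.

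Messenger RNA was sequenced from AC16 cells, an established human cardiomyocyte line. The line was made by fusing adult human ventricular heart cells with a virus-transformed fibroblast line, and it divides in culture. One group of 5 libraries came from cells that met filtered air at an air-liquid interface, and the other group of 5 came from cells that met electronic cigarette aerosol in such a system. Apart from the gas phase, the labels give every culture the same line, medium and serum. What the aerosol held, how much reached the cells and for how long are not stated in the sources used here.

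NEAT1 is transcribed as a short form with a poly(A) tail and a long form without one, and the long form is the architectural core on which paraspeckles assemble. SFPQ and NONO, with PSPC1, belong to a family of nuclear proteins that pair with each other, and SFPQ and NONO are needed for NEAT1 to build paraspeckles in human cells. MALAT1 is made from the next long noncoding gene along the same chromosome and gathers at nuclear speckles, the neighbouring bodies rich in splicing factors. Both RNAs can end in a triple helix in place of a poly(A) tail, after cleavage by RNase P. Whether the library kit captured RNA without a poly(A) tail is not stated in the sources used here, and a count per gene does not separate the NEAT1 forms.

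Gene counts summed to between 65902331 and 88806394 in the filtered air libraries and to between 60482726 and 72099157 in the aerosol libraries. Levels are given as CPM, counts scaled to 1 common library size after adjustment by the trimmed mean of M-values (TMM), with the SD of 5 libraries. In a quasi-likelihood test with edgeR, 608 genes (3.01% of those tested) had a Benjamini-Hochberg adjusted p under 0.05, of which 327 were higher and 281 lower after aerosol. With library size as the only scaling the split was 244 higher and 318 lower, and with upper-quartile scaling it was 482 higher and 171 lower. The count came to 262 without aerosol library 3, 309 without aerosol library 4, and 231, 187, 183 and 227 without filtered air libraries 1, 2, 3 and 4. Of 13 markers of cardiomyocytes, 7 were at 0 in every library, among them TNNT2, MYH6, MYH7 and NKX2-5, and GATA4 ranged from 5.92 to 21.2 CPM under filtered air and from 7.09 to 15.6 CPM after aerosol. The 7 fibroblast markers summed to between 9847 and 10718 CPM under filtered air and to between 7700 and 8383 CPM after aerosol. Markers of endothelium and epithelium summed to at most 1.20 and at most 3.33 CPM in any library, and those of leukocytes to between 33.2 and 60.7 CPM. Nearly all of the leukocyte sum was CD68, at 33.2 to 60.3 CPM. PTPRC and CD14 reached at most 0.358 and 1.76 CPM, and CD3E was at 0 in every library. The part of these shifts in the results was not tested. In bulk RNA a change in the share of cells of a type and a change in RNA per cell cannot be told apart.

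Aerosol libraries 4 and 5 differed in many genes from the other 8. Principal component 1 of log2 CPM held 28.6% of the variance and placed them at 82.2 and 206, with the others between -50.7 and 1.11. Genes listed at 0 in a library although the median of the other libraries was at least 100 counts numbered 93 and 221 in these libraries, against 12 to 26 in the rest. Counts on the mitochondrial genome took 18.1% and 19.5% of all counts in them, 12.4% to 14.5% in the other 3 aerosol libraries and 7.75% to 10.3% under filtered air. The log2 fold change of each member and the median and count of each gene list are therefore also given without these libraries.

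Of the 9 identifiers, 2 were past the adjusted threshold of that fit, NEAT1 and MALAT1, both higher after aerosol, beside 3.01% of all genes in either direction (1.62% higher and 1.39% lower). Since the genes were chosen on this contrast, nothing is read from that count. The same 2 passed when aerosol libraries 4 and 5 were left out, where 1.87% of 22304 genes did. NEAT1 and MALAT1 were also the 2 whose libraries did not overlap between groups, against 7.45% of all genes (3.52% on the higher side and 3.93% on the lower), and the libraries of the other 7 identifiers overlapped.

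NEAT1 (ENSG00000245532) lies at chr11:65422798-65445540 in GRCh38. Its level in filtered air libraries 1 to 5 was 64.8, 73.8, 48.5, 39.8 and 64.9 CPM. Aerosol libraries 1 to 5 held it at 282, 247, 302, 346 and 299 CPM. The lowest aerosol library was thus far above the highest filtered air library, and the 5 aerosol libraries lay close together. The means were 58.4 ± 13.8 and 295 ± 35.9 CPM (SD, n = 5 each), a log2 fold change of 2.34 ± 0.16 (SE), or 5.05-fold. Spread relative to the mean was 23.7% under filtered air and 12.2% after aerosol. Aerosol library 4 was the highest of them, and aerosol library 5 lay within the range of aerosol libraries 1 to 3. Without aerosol libraries 4 and 5 the mean after aerosol was 277 ± 27.9 CPM (n = 3) and the log2 fold change 2.24 ± 0.17, and leaving out any 1 library gave 2.22 to 2.43.

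Ranked by count within each library, NEAT1 moved from between rank 3058 and rank 4913 under filtered air to between rank 443 and rank 617 after aerosol. Its share of all counts was 0.00408% to 0.00757% under filtered air and 0.0254% to 0.0309% after aerosol. Even after aerosol NEAT1 was thus a small fraction of the library, while its place among the genes was higher in each aerosol library than in any filtered air library.

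MALAT1 (ENSG00000251562) lies at chr11:65497738-65506516, and 52198 bases separate its start from the end of NEAT1. Its level in filtered air libraries 1 to 5 was 2797, 2943, 3128, 3266 and 3765 CPM. Aerosol libraries 1 to 5 read 7486, 7673, 10538, 16390 and 44762 CPM. Each aerosol library was above each filtered air library, but the aerosol libraries were spread widely, with aerosol library 5 alone far above the rest. The means were 3180 ± 373 and 17370 ± 15730 CPM (SD, n = 5 each), and the median after aerosol was 10538 CPM. The log2 fold change was 2.45 ± 0.50 (SE), or 5.46-fold. Without aerosol library 5 the log2 fold change was 1.72, and without aerosol libraries 4 and 5 it was 1.42 ± 0.12, with a mean of 8566 ± 1711 CPM (n = 3). The size of the MALAT1 difference therefore rested on 2 libraries, while its direction did not.

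MALAT1 was already among the genes with the most counts under filtered air, at ranks 17, 15, 15, 15 and 11. After aerosol it stood at ranks 7, 7, 6, 5 and 2. It took 0.291% to 0.390% of all counts under filtered air. In the aerosol libraries it took 0.784%, 0.807%, 1.05%, 1.46% and 3.81%, and the 95% Wilson interval of the last was 3.81% to 3.82%, which covers counting error only. Genes that RefSeq types as long noncoding RNA, other than NEAT1 and MALAT1, together took 0.638% to 0.691% under filtered air. After aerosol they took 0.621% to 0.775%, and they were lowest of the aerosol group in libraries 4 and 5. RefSeq had an entry for 40215 of the 58735 identifiers, and the rest are not in this sum. TUG1, typed there as protein coding, is also left out.

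**Figure D1:**
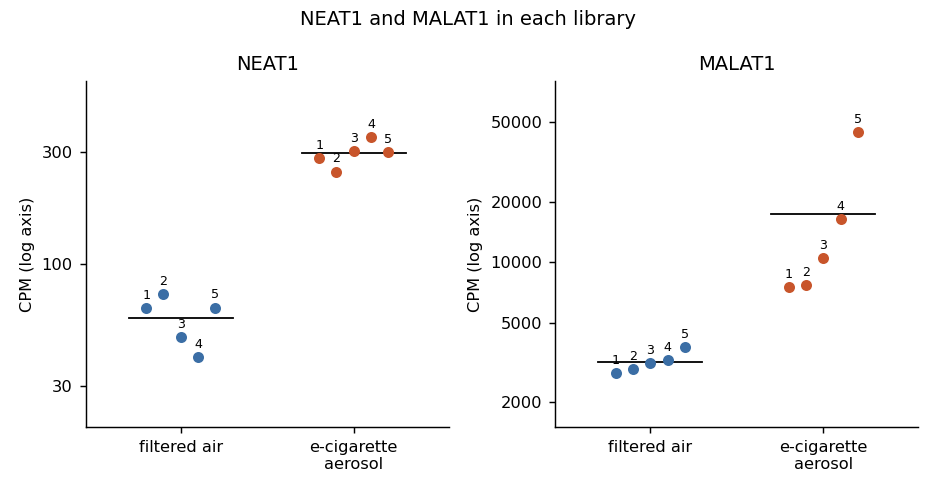
Levels of NEAT1 and MALAT1 in each library, on a log axis in CPM; each point is 1 library, numbered, and the horizontal line is the group mean. For NEAT1 the aerosol libraries lie together at 247 to 346 CPM, whereas for MALAT1 they run from 7486 to 44762 CPM, and in both plots no aerosol library reaches down to a filtered air library.

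The 2 RNAs did not keep a fixed ratio. MALAT1 counts per NEAT1 count were 43.1, 39.9, 64.5, 82.0 and 58.0 in filtered air libraries 1 to 5. They were 26.5, 31.1, 34.9, 47.4 and 150 in aerosol libraries 1 to 5. Aerosol libraries 1 to 3 lay below every filtered air library, aerosol library 4 lay within their range, and aerosol library 5 lay above it. Among 10970 genes that averaged 5 CPM or more, the log2 fold change of MALAT1 was the 6th highest and that of NEAT1 the 9th highest. The order of the 2 was reversed without aerosol libraries 4 and 5 (1.42 for MALAT1 and 2.24 for NEAT1). It was also reversed in limma-voom (2.07 and 2.35) and with replicate number as a further term in edgeR (2.07 and 2.36).

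RefSeq start regions were at hand for 6 of the 8 genes, with none for NEAT1 or SFPQ. They lie in 8 windows that reach from 250 bases before to 50 bases after an annotated start. MALAT1 has 2 such windows. They are shown because MALAT1 had the highest log2 fold change of the 8 genes in the main edgeR fit of all 10 libraries. Another reason is that only 1 of its annotated starts has a TATA motif. Both lie on the plus strand of GRCh38.p14, the first at chr11:65497488-65497787 and the second at chr11:65498795-65499094, and capitals mark a TATAAA motif.
MALAT1, first start: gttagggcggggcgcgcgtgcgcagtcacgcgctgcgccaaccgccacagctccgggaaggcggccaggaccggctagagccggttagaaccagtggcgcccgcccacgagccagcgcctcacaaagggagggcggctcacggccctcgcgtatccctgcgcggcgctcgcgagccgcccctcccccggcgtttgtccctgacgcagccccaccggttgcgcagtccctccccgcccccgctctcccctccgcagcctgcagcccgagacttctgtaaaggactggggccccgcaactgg
MALAT1, second start: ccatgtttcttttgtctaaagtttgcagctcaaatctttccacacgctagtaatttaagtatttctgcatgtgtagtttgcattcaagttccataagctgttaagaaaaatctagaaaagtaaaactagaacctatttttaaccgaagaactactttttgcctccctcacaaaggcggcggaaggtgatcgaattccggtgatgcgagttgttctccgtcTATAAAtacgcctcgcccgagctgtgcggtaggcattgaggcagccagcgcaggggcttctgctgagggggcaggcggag
The first window holds no TATAAA on either strand. The second holds 1 TATAAA on the plus strand, 30 bases before the start, a motif found on either strand in 11.5% of all 35116 RefSeq windows of this length. None of TGANTCA (an AP-1 element, in 7.71% of all windows), TGACGTCA (a CREB and ATF element, in 1.85%) or GAANNTTC (a heat shock element core, in 6.77%) was found on either strand in any of the 8 windows of these genes. A match or its absence describes letters in these windows and says nothing of binding. The start regions of NEAT1 and SFPQ were not examined.

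For each of the proteins the libraries of the 2 groups overlapped. SFPQ (ENSG00000116560, chr1:35176380-35193145), the splicing factor proline and glutamine rich, was at 585, 660, 574, 639 and 600 CPM in filtered air libraries 1 to 5. It was at 598, 548, 741, 1014 and 1015 CPM in aerosol libraries 1 to 5. The aerosol libraries above the filtered air range were libraries 3, 4 and 5. The means were 612 ± 36.5 and 783 ± 223 CPM and the log2 fold change was 0.36 ± 0.16, but without aerosol libraries 4 and 5 it was 0.03 ± 0.10.

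NONO (ENSG00000147140, chrX:71283635-71301168), the partner that pairs with SFPQ, was at 195, 232, 191, 241 and 220 CPM in filtered air libraries 1 to 5. It was at 228, 178, 232, 214 and 317 CPM in aerosol libraries 1 to 5, so that only aerosol library 5 was above the filtered air range. The log2 fold change was 0.11 ± 0.14, and without aerosol libraries 4 and 5 it was -0.03 ± 0.11. SFPQ counts per NONO count lay between 2.65 and 3.00 under filtered air. In aerosol libraries 1 to 5 the ratio was 2.63, 3.09, 3.20, 4.74 and 3.20, with aerosol library 4 apart from the rest.

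PSPC1 (ENSG00000121390, chr13:19671205-19782945), paraspeckle component 1, was at 63.7, 66.7, 79.3, 79.9 and 71.6 CPM in filtered air libraries 1 to 5. It was at 73.2, 63.8, 86.0, 102 and 120 CPM in aerosol libraries 1 to 5. The log2 fold change was 0.30 ± 0.16, and without aerosol libraries 4 and 5 it was 0.03 ± 0.13. For SFPQ and PSPC1 alike, aerosol libraries 4 and 5 were the 2 highest of all 10, and aerosol libraries 1 and 2 lay within or near the filtered air range.

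RBM14 (ENSG00000239306, chr11:66616630-66629934), a prion-like coactivator protein needed for paraspeckle formation, had a lower mean after aerosol. Its level in filtered air libraries 1 to 5 was 85.0, 78.0, 61.8, 44.0 and 44.1 CPM. Aerosol libraries 1 to 5 read 45.3, 63.5, 34.6, 45.0 and 31.4 CPM. The groups overlapped, since filtered air libraries 4 and 5 were as low as most aerosol libraries. The log2 fold change was -0.51 ± 0.23, and without aerosol libraries 4 and 5 it was -0.39 ± 0.27. RBM14 shares exons with the readthrough gene RBM14-RBM4, which took 8.38% to 33.0% of the counts of both genes under filtered air and 14.8% to 53.6% after aerosol. The sum of both was 60.0 to 96.6 CPM under filtered air and 52.8 to 74.6 CPM after aerosol, and RBM14-RBM4 itself gave 0.45 ± 0.42 on the log2 scale (edgeR adjusted p = 0.643). How the authors' counting split reads that fit both genes is not stated in the sources used here, so the level of RBM14 alone is uncertain.

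TARDBP (ENSG00000120948, chr1:11012654-11030528) encodes TDP-43, an RNA-binding protein that binds NEAT1. Its level in filtered air libraries 1 to 5 was 72.9, 113, 171, 189 and 79.5 CPM. Aerosol libraries 1 to 5 read 70.7, 68.9, 118, 90.6 and 236 CPM. Both groups were wide, with spreads of 42.2% and 59.6% of the mean, and they overlapped over most of their range. The log2 fold change of -0.10 ± 0.39 changed sign when a single library was left out, to 0.09 without filtered air library 4, and was -0.53 without aerosol library 5 and -0.55 ± 0.38 without aerosol libraries 4 and 5. No direction is given for TARDBP for that reason.

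**Figure D2:**
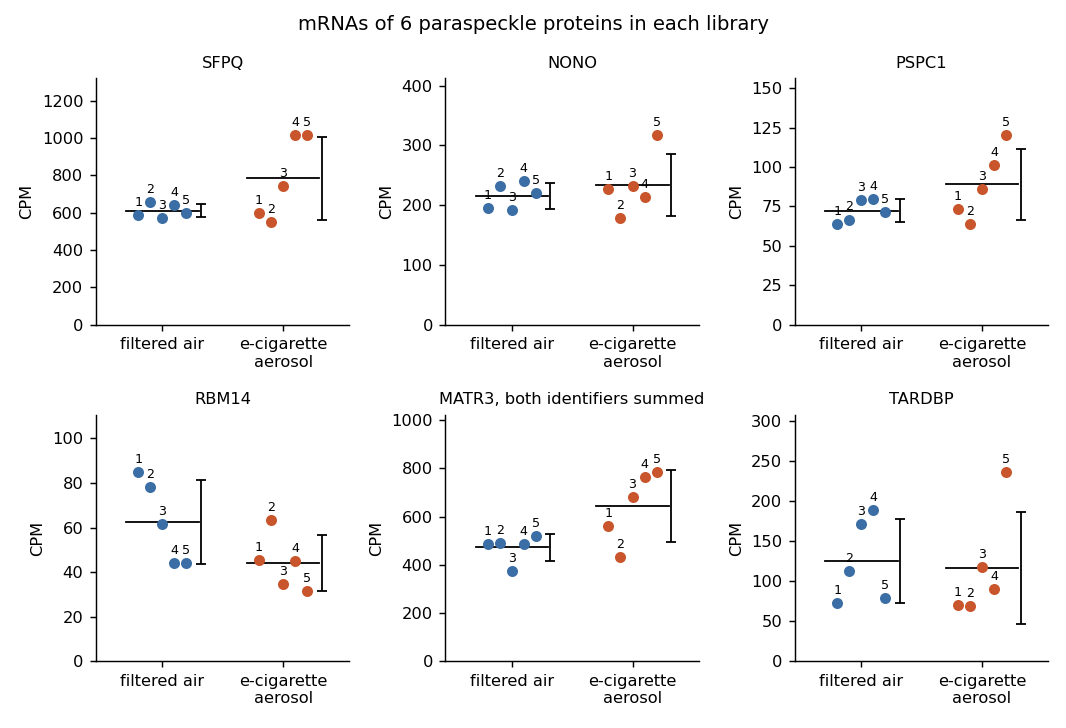
Levels of the 6 protein-coding genes in each library, on linear axes from 0 in CPM; each point is 1 library, numbered, the horizontal line is the group mean, the bracket is 1 SD either way, and MATR3 is the sum of its 2 identifiers. In each plot the 2 groups overlap, and for SFPQ, PSPC1 and MATR3 the highest points are aerosol libraries 4 and 5.

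MATR3 encodes matrin 3, a nuclear matrix protein that binds RNA. Its locus, chr5:139274101-139331677, is counted under ENSG00000015479 and ENSG00000280987. The first identifier was at 184, 148, 127, 180 and 158 CPM in filtered air libraries 1 to 5. In aerosol libraries 1 to 5 it was at 110, 161, 249, 758 and 758 CPM. The second identifier was at 304, 342, 250, 308 and 363 CPM in filtered air libraries 1 to 5. In aerosol libraries 1 to 5 it was at 450, 271, 434, 5.17 and 26.9 CPM. In aerosol libraries 4 and 5, then, nearly all MATR3 counts sat on the first identifier, and in the other 8 libraries most sat on the second. The share on the first identifier was 30.1% to 37.8% under filtered air, 19.6%, 37.3% and 36.4% in aerosol libraries 1 to 3, and 99.3% and 96.6% in aerosol libraries 4 and 5.

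Read alone, the first identifier gave a log2 fold change of 1.35 ± 0.52 and the second gave -0.40 ± 0.89. Without aerosol libraries 4 and 5 these became 0.11 ± 0.24 and 0.29 ± 0.17. The sum of both, an alternative chosen after the data were seen, was 488, 490, 377, 487 and 520 CPM in filtered air libraries 1 to 5. It was 560, 431, 683, 763 and 785 CPM in aerosol libraries 1 to 5. The sum was above the filtered air range in aerosol libraries 1, 3, 4 and 5 and within it in library 2. The means were 472 ± 55.3 and 644 ± 148 CPM, a log2 fold change of 0.45 ± 0.15, and without aerosol libraries 4 and 5 it was 0.23 ± 0.14. There were 11 symbols with 2 identifiers and at least 200 counts per library over both identifiers together. MATR3 was the 1 in which aerosol libraries 4 and 5 lay over 20 percentage points outside the range of the other 8. A single identifier held over 94% of the counts in every library for PINX1, RMRP, MIRLET7A1HG, SOD2 and SPATA13. For ATXN7 the other 8 libraries ran from 19.6% to 99.5%, so it could not have met this mark.

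**Figure D3:**
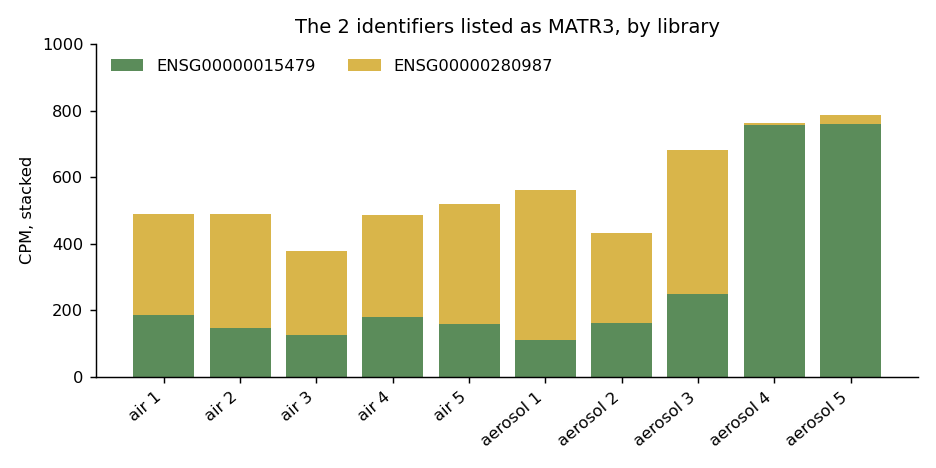
Levels of the 2 MATR3 identifiers in each library, in CPM, as stacked bars that start at 0; the bar's full height is their sum. Aerosol libraries 4 and 5 are almost wholly ENSG00000015479, at 99.3% and 96.6%, while the other 8 bars hold 19.6% to 37.8% of it.

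MATR3 has 2 annotated starts in RefSeq, shown because its counts moved between identifiers. The 250 bases before each lie on the plus strand of GRCh38.p14, at chr5:139273851-139274100 and chr5:139293490-139293739. Capitals in the second mark CACGT, the reverse complement of ACGTG, the core of the hypoxia response element.
MATR3, first start: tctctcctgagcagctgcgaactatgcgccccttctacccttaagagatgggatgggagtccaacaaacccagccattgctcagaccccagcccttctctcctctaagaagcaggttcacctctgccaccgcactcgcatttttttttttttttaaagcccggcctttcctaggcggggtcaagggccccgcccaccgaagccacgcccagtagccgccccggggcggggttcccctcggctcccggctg
MATR3, second start: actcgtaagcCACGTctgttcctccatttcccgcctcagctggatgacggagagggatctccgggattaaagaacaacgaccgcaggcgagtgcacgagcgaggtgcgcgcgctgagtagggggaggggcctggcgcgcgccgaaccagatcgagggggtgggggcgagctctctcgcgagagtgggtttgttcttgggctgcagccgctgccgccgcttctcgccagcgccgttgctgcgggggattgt
ACGTG is found on either strand in 21.4% of all windows, and among the members the second MATR3 window and that of TARDBP held it. Which identifier belongs to which start is not given in the tables used here.

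**Figure D4:**
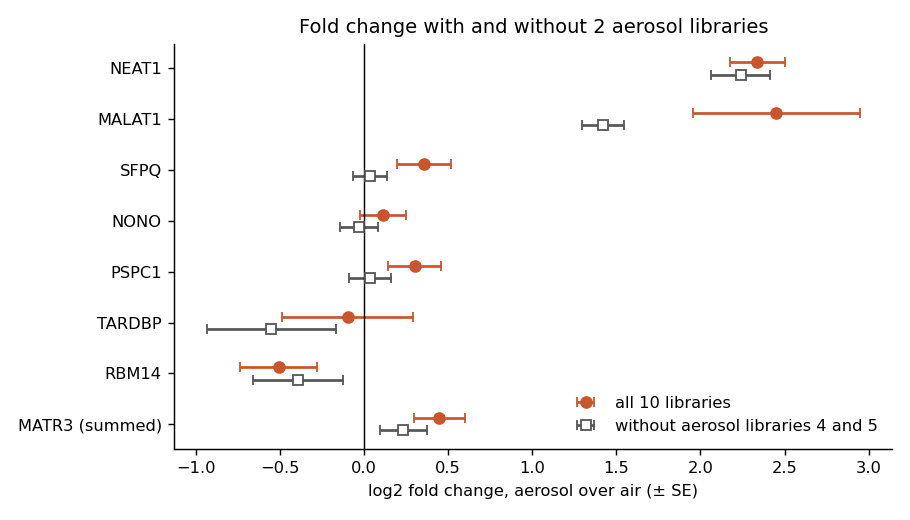
Log2 fold change, aerosol against filtered air, of each member (MATR3 as the sum of its identifiers) with all 10 libraries and without aerosol libraries 4 and 5; points are estimates from the edgeR fit and lines are 1 SE. NEAT1 keeps nearly its value (2.34 and 2.24), MALAT1 goes from 2.45 to 1.42, and SFPQ, NONO and PSPC1 lie within 0.04 of 0 without these libraries.

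Under the other scalings, filters and tools the log2 fold change of NEAT1 lay between 2.23 and 2.42 and that of MALAT1 between 2.07 and 2.55. That of NONO was 0.00 with library size as the only scaling and 0.20 with upper-quartile scaling. The median of all genes was -0.0042 in the fit used here and shifted by less than 0.1 under every scaling.

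Copies of these genes could share reads with them. Of 12 pseudogenes, readthrough and antisense genes that carry a member's symbol, 9 were at 0 in every library. RBM14-RBM4, given above, was one of the 3 with counts. PSPC1-AS2, antisense to PSPC1, had at most 65 counts in a library and gave -1.65 ± 1.42 on the log2 scale (edgeR adjusted p = 0.609). NONOP2, a NONO pseudogene, had 0 to 110 counts (0.66 ± 1.02, edgeR adjusted p = 0.805). TALAM1, the antisense RNA of MALAT1, was not analysed here. The use of strand in counting is not stated in the sources used here, so reads from it and from MALAT1 cannot be told apart.

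Neighbouring genes were read to see what lay around the pair. The 6 nearest tested genes on each side span chr11:65261962-65592650, and none of the 12 passed the adjusted threshold in edgeR or in limma-voom. At an unadjusted p under 0.05 there were 3 of the 12, beside 18.3% of all genes. DESeq2 called 2 of the 12 lower, ZNRD2 among them, beside 8.12% of the 24094 genes to which it gave an adjusted p. Of the 12, 9 had a log2 fold change below 0, beside 10155 of all 20166 genes, and the median of the 12 was -0.32. Without aerosol libraries 4 and 5 none passed and the median was -0.13. TIGD3, SLC25A45 and ZNRD2-DT averaged only 0.191, 0.683 and 0.518 CPM under filtered air. CDC42EP2 was at 0 in some libraries of both groups. The signs of these genes are therefore uncertain. On the NEAT1 side the nearest pair was SLC25A45, a mitochondrial carrier, at -0.83 ± 1.06 (edgeR adjusted p = 0.756), and FRMD8, which takes part in the maturation of the protease ADAM17, at -0.28 ± 0.32 (edgeR adjusted p = 0.722). On the MALAT1 side LTBP3, a TGF-beta binding matrix protein, was at 0.10 ± 0.16 (edgeR adjusted p = 0.797). ZNRD2, at 9.62 ± 2.17 and 3.53 ± 2.60 CPM, gave -1.45 ± 0.45 (edgeR adjusted p = 0.107), and was under 0.05 without aerosol library 2 (0.0288). FAUP4, a transcribed pseudogene and the 1 tested gene between NEAT1 and MALAT1, was at 5.40 ± 1.44 and 2.73 ± 0.69 CPM (-0.98 ± 0.30, edgeR adjusted p = 0.0966). It was not above the threshold in every alternative fit, where its lowest adjusted p was 0.0121.

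**Figure D5:**
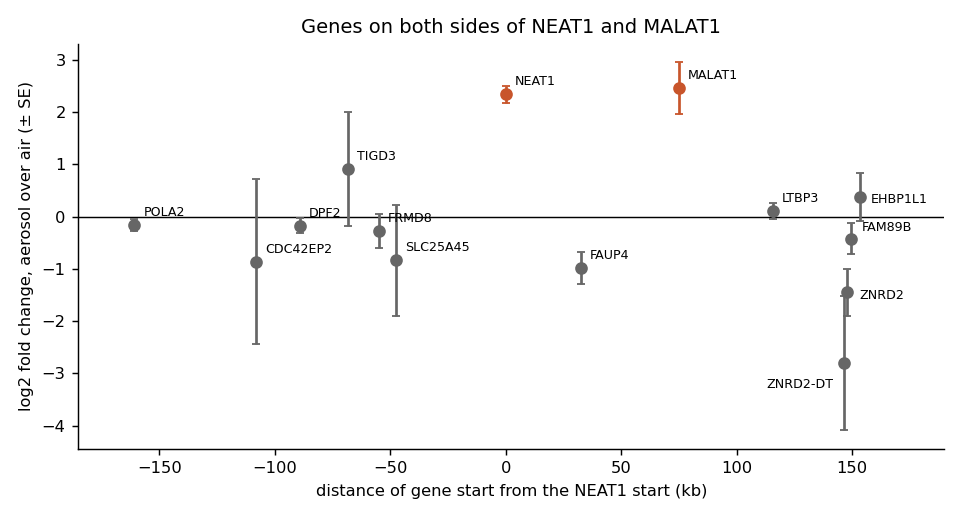
Log2 fold change, aerosol against filtered air, of NEAT1, MALAT1, FAUP4 and 11 neighbouring genes, by distance of the gene start from the NEAT1 start in kilobases; lines are 1 SE. NEAT1 and MALAT1 stand at 2.34 and 2.45, while 8 of the 11 neighbours drawn lie below 0 and none of them passed the adjusted threshold.

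Of 31 other proteins reported in paraspeckles, 30 could be tested, and 1 rose and none fell at the adjusted threshold, a share of 3.33% beside 3.01% of all genes. Their median log2 fold change was 0.14 beside -0.0042 over all genes, and without aerosol libraries 4 and 5 it was -0.04, with 1 called. At an unadjusted p under 0.05 there were 11 of the 30, beside 18.3% of all genes. Libraries did not overlap between groups in 1 of the 30 on the higher side and 2 on the lower, beside 7.45% of all genes. DESeq2 called 5 of the 30, beside 8.12% of the genes it tested. No list was tested as a set. The one that rose in the edgeR fit was FIGN, fidgetin, a microtubule-severing enzyme. FIGN was at 28.1 to 31.4 CPM in every filtered air library and at 39.0, 44.4, 49.4, 53.6 and 60.5 CPM in aerosol libraries 1 to 5 (log2 fold change 0.70 ± 0.13, edgeR adjusted p = 0.0170). It missed the threshold without filtered air library 1, 2 or 3 (edgeR adjusted p = 0.0540, 0.0532 and 0.0514) and kept it without aerosol libraries 4 and 5 (0.0457).

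Others of this list were picked out after their values were seen. HNRNPH3, an RNA-binding protein of the paraspeckle, gave 0.68 ± 0.20 (edgeR adjusted p = 0.0933), and TAF15, also an RNA-binding protein, gave 0.18 (edgeR adjusted p = 0.678). HNRNPK, which favours the long form of NEAT1, was at 506 and 444 CPM on average (-0.19, edgeR adjusted p = 0.220). CPSF6 and NUDT21, the cleavage factor subunits that favour the short form, gave 0.10 (edgeR adjusted p = 0.770) and 0.14 (edgeR adjusted p = 0.602). Neither the factors of the short form nor that of the long form passed the threshold.

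Among 21 scaffold and splicing proteins of nuclear speckles, the bodies where MALAT1 gathers, 1 rose and none fell, a share of 4.76% beside 3.01% of all genes. The median log2 fold change was 0.27, and without aerosol libraries 4 and 5 it was 0.11, with 1 called. At an unadjusted p under 0.05 there were 11 of the 21, beside 18.3% of all genes. Libraries did not overlap between groups in 4 of the 21, all higher, beside 7.45% of all genes. DESeq2 called 5 of the 21, beside 8.12% of the genes it tested. The one that rose in the edgeR fit was CCNL1, cyclin L1, a partner of kinases that act in splicing. CCNL1 was at 40.2 to 49.5 CPM under filtered air and at 76.2, 89.2, 92.9, 104 and 152 CPM in aerosol libraries 1 to 5 (log2 fold change 1.13 ± 0.17, edgeR adjusted p = 0.00644). Like MALAT1 it had its highest value in aerosol library 5, and it passed the threshold without aerosol libraries 4 and 5 (edgeR adjusted p = 0.00619). SON and SRRM2, the scaffold proteins of the speckle, named after their values were seen, gave 0.32 (edgeR adjusted p = 0.0964) and -0.22 (edgeR adjusted p = 0.875).

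Of 19 other nuclear or chromatin-bound long noncoding RNAs, 17 could be tested, and 3 rose and none fell, a share of 17.6% beside 3.01% of all genes. The median log2 fold change was 0.15, and without aerosol libraries 4 and 5 it was 0.17, with 1 called. The median of 0.15 was the value of FIRRE, which had an SE of 1.5 and was at -2.26 without those libraries. FIRRE, MIAT and HOTAIR, named after their values were seen, averaged only 0.283, 0.693 and 0.775 CPM under filtered air. Their signs are therefore uncertain. At an unadjusted p under 0.05 there were 5 of the 17, beside 18.3% of all genes. Libraries did not overlap between groups in 2 of the 17 on the higher side and 1 on the lower, beside 7.45% of all genes. DESeq2 called 4 of the 17, beside 8.12% of the genes it tested. FTX, from the X-inactivation centre, was at 24.3, 28.9, 28.6, 38.7 and 21.6 CPM in filtered air libraries 1 to 5. It was at 59.4, 66.8, 61.3, 51.4 and 56.3 CPM in aerosol libraries 1 to 5 (log2 fold change 1.05 ± 0.16, edgeR adjusted p = 0.00704). Aerosol libraries 4 and 5 were its lowest of the aerosol group, and FTX passed the threshold without them (edgeR adjusted p = 0.00992). KCNQ1OT1, the imprinted RNA antisense to KCNQ1, was at 31.1 ± 4.46 and 50.6 ± 5.98 CPM (0.70 ± 0.14, edgeR adjusted p = 0.0195), but missed the threshold without aerosol libraries 4 and 5 (0.0602), without filtered air library 2 (0.0611) or 3 (0.0640). TUG1, a nuclear and cytoplasmic RNA bound to Polycomb proteins, was at 252 ± 24.8 and 341 ± 40.5 CPM (0.44 ± 0.10, edgeR adjusted p = 0.0398), and missed it in 8 of the 10 fits that left out 1 library and without aerosol libraries 4 and 5 (0.130).

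None of the 13 factors of the RNase P, RNase Z and triple-helix group, which form and guard the tail-less ends of MALAT1 and NEAT1, passed the threshold in edgeR or limma-voom, and DESeq2 called 2, beside 8.12% of the genes it tested. At an unadjusted p under 0.05 there were 3 of the 13, beside 18.3% of all genes. Libraries did not overlap between groups in 1 of the 13, on the lower side, beside 7.45% of all genes. Of the 13, 10 had a log2 fold change below 0, beside 10155 of all 20166 genes, and the median of the 13 was -0.15. Without aerosol libraries 4 and 5 none passed and the median was -0.23. RPPH1, the RNA of RNase P, was at 214 ± 72.8 and 309 ± 102 CPM (0.53 ± 0.25, edgeR adjusted p = 0.294). ELAC2, the RNase Z that trims the small RNA released from MALAT1, was at 85.9 ± 5.36 and 64.7 ± 9.24 CPM (-0.41 ± 0.12, edgeR adjusted p = 0.0780), and DESeq2 gave it an adjusted p of 0.0220. METTL16, a protein that binds the MALAT1 triple helix and was named after its value was seen, gave -0.01 (edgeR adjusted p = 0.992).

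None of the 17 genes of nuclear RNA decay passed the threshold in edgeR or limma-voom, and DESeq2 called 1, beside 8.12% of the genes it tested. At an unadjusted p under 0.05 there were 3 of the 17, a share near the 18.3% of all genes. Libraries overlapped between groups in every gene of this list, while they did not in 7.45% of all genes. The median log2 fold change was -0.02, and without aerosol libraries 4 and 5 none passed and the median was -0.17. EXOSC10, a catalytic subunit of the nuclear exosome, was at 165 and 195 CPM (0.24, edgeR adjusted p = 0.180). MTREX, the helicase that feeds the nuclear exosome, was at 177 and 192 CPM (0.12, edgeR adjusted p = 0.656).

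Of 9 transcription factors reported to act on the NEAT1 promoter, 1 rose and none fell, a share of 11.1% beside 3.01% of all genes. The median log2 fold change was -0.19, and without aerosol libraries 4 and 5 it was -0.17, with 0 called. At an unadjusted p under 0.05 there were 4 of the 9, beside 18.3% of all genes. Libraries did not overlap between groups in 1 of the 9 on the higher side and 1 on the lower, beside 7.45% of all genes. DESeq2 called 2 of the 9, beside 8.12% of the genes it tested. ATF2, a factor of the CREB and ATF family, was at 117 ± 10.1 and 162 ± 23.4 CPM (0.47 ± 0.11, edgeR adjusted p = 0.0417), and missed the threshold without aerosol libraries 4 and 5 (0.137) and in 7 of the 10 fits that left out 1 library. The others named here were picked after their values were seen. HIF1A and EPAS1, the oxygen-regulated factors, gave 0.14 (edgeR adjusted p = 0.620) and -0.30 (edgeR adjusted p = 0.200). HSF1, the heat shock factor, gave -0.21 (edgeR adjusted p = 0.692).

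Profiles over the 10 libraries were compared by the root mean square distance of centred log2 CPM among 10381 coding and long noncoding genes that averaged 5 CPM or more. The 5 nearest to NEAT1 were SNX32, MIR181A1HG, STARD13-AS, ZBTB11-AS1 and FOS, at distances of 0.43 to 0.55 on the log2 scale. SNX32 was at 3.23 ± 0.91 and 11.2 ± 4.08 CPM. The 5 nearest to MALAT1 were HNRNPK-AS1, THBS1-IT1, NEXN, STARD13-AS and SNRK, at 0.48 to 0.60. NEXN was at 23.7 ± 4.14 and 53.0 ± 29.4 CPM, so that its aerosol libraries were also spread widely. MALAT1 and NEAT1 were not nearest to each other. They lay 0.70 apart, which placed MALAT1 27th from NEAT1 and NEAT1 21st from MALAT1.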

How the data were processed

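The authors deposited 1 table of whole-number counts per gene for each of the 10 mRNA libraries, with 58735 Ensembl identifiers. Tools listed in the submitters' processing notes are featureCounts 1.5.0-p3, HISAT and DESeq 1.8.3, with hg38 as the build and no roles or settings. Per the labels, RNA was extracted with TRIzol and sequenced from a SMARTER mRNA kit. The labels name no batch, and 0 columns belonged to unmapped samples. The 10 miRNA samples were not analysed here. The labels call the 5 samples of a group biological replicates. No libraries agreed within sampling noise (lowest chi-square per degree of freedom 68.4).

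Counts were fitted with edgeR 4.0.16 in R 4.3.3 (TMM scaling, filterByExpr on the group, robust quasi-likelihood F test, group as the only term), with Benjamini-Hochberg adjustment over the 20166 genes kept. The SE of a log2 fold change is its size divided by the square root of F. The common biological coefficient of variation was 0.602. CPM, log2 CPM (prior count 2) and Wilson 95% intervals were computed here from the deposited counts, and intervals cover counting error only. The fit was tested on simulated data with known changes. Names came from a table that matched 58207 identifiers, positions from RefSeq GRCh38.p14 by symbol, and start regions from RefSeq. Gene lengths here are genomic spans, so levels were not scaled by length. Ranks by count and ratios of counts between genes are therefore not adjusted for gene length.

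The members, the 6 lists (110 genes) and the tests were chosen with earlier results of these data known. Named genes were every member and its detected copies, up to 4 called genes of each list by smallest p (where none was called, the 2 with the highest level), the 2 nearest neighbours on each side, and the 5 nearest profiles to NEAT1 and to MALAT1. Genes outside this rule are said to be picked after their values were seen. The alternatives were RLE, upper-quartile and library-size scaling, library sizes without MALAT1, NEAT1 and mitochondrial genes, DESeq2 1.42.0, limma-voom (limma 3.58.1), other low-count filters, a replicate block, leaving out each library, and leaving out aerosol libraries 4 and 5. The sum of the MATR3 identifiers was added after the data were seen. Some genes that this rule or these lists take in are not reported here.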

Additional observations from a re-analysis of the deposited data

Results flagged for a closer look

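In 48 groups of 5 libraries, 4 held a library whose gap to its nearest neighbour took over 0.71 of the group's range (Dixon's 95% value), where chance gives about 1 in 20. MALAT1 was at 44762 CPM in aerosol library 5 and at 7486 to 16390 CPM in the other aerosol libraries. The summed MATR3 level was 376.5 CPM in filtered air library 3 and 487 to 520 CPM in the other filtered air libraries. CCNL1 was at 40.2 CPM in filtered air library 4 and at 47.6 to 49.5 CPM in the others of that group. SLC25A45, the neighbour of NEAT1, was at 0.0544 CPM in filtered air library 5 and at 0.718 to 0.980 CPM in the others of that group.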

How the results depend on the processing

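The log2 fold changes of NEAT1 and MALAT1 kept their direction in all 20 alternatives, while those of NONO, TARDBP and MATR3 ENSG00000280987 changed sign in at least 1. The cause of each shift here was not tested. Without aerosol libraries 4 and 5 the log2 fold change was 1.42 for MALAT1, 0.034 for SFPQ and 0.11 for MATR3 ENSG00000015479, 188 genes were higher, 1 nuclear long noncoding RNA and 0 of the promoter factors passed. DESeq2 called 1957 genes, 8.12% of those it tested (1148 higher, 809 lower). Of the lists, it called 5 of 30 other paraspeckle proteins, 5 of 21 speckle proteins and 2 of 9 promoter factors. It also called 2 of 13 in the RNase P and triple-helix group, 1 of 17 genes of nuclear decay and 2 of 12 neighbours. Upper-quartile scaling called 171 lower genes. RLE, upper-quartile and library-size scaling and the filter of 1 CPM in 5 libraries each called 2 other paraspeckle proteins, and library-size scaling and no filter each called 0 promoter factors. Leaving out 1 library gave 183 to 757 genes (110 to 383 higher, 73 to 374 lower), 0 to 4 paraspeckle proteins, 1 to 3 speckle proteins, 1 to 3 long noncoding RNAs, 0 to 2 promoter factors and 0 to 1 neighbours. Same-numbered libraries correlated at 0.0078 to 0.053, with 0 of 5 pairs over 0.1, although 4 of the 10 libraries correlated best with their own number. Whether equal replicate numbers mark a pair cannot be settled from so few libraries. With the replicate block 450 genes passed (205 higher) and 1 neighbour, ZNRD2. Depth was not the limit for the members, whose lowest count was 333, for MATR3 ENSG00000280987 in aerosol library 4.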
